A study of Homo sapiens with 9 samples.

Results

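The histone genes described here are the 57 genes whose symbol begins with HIST1H, HIST2H, HIST3H or HIST4H in the expressed-gene table, out of 31558 genes in all. They were sorted into 5 families by the histone named in the symbol: 5 H1 genes, 15 H2A genes, 16 H2B genes, 10 H3 genes and 11 H4 genes. Of the 57, 50 were listed as protein-coding and 7 as pseudogenes. The pseudogene HIST1H1PS2, placed with H1 by its symbol, is annotated as an H3 pseudogene in GENCODE. The symbols place 44 of them in the HIST1 cluster on chromosome 6, 9 in HIST2 and 3 in HIST3 on chromosome 1, and 1 in HIST4 on chromosome 12. RNA came from HCT116, a human colorectal carcinoma cell line, in 3 groups with 3 biological replicates each. CRLM1-OE cells were transfected with a pTSB plasmid carrying the cDNA of the long noncoding RNA CRLM1 (LINC01767), Anti cells with the overexpressed antisense control and Ctrl cells with the free (empty) plasmid. Total counts per sample lay between 33302292 and 44514692, so that 3 counts in a library, the floor used here, correspond to a CPM (the count scaled to the size of the library) of 0.0674 to 0.0901. CRLM1 itself had an FPKM (fragments scaled to transcript length and library size) of 1483 to 1582 in CRLM1-OE and of 70.9 to 78.5 in Anti, while every Ctrl sample listed it at 0. The 9 libraries carried the epithelial marker list of 10 genes at a summed FPKM of 4572 to 5558, against 1.19 to 2.51 for 7 fibroblast markers, 0.20 to 0.45 for 6 leukocyte markers and 0.05 to 0.14 for 4 endothelial markers. KRT8, KRT18 and KRT19 carried most of the epithelial sum, while CDH17, VIL1, CEACAM5 and CDX1 had an FPKM of at most 0.07 in every sample. COL1A1 carried nearly all of the fibroblast sum.

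DNA in the nucleus is wound around an octamer of the core histones H2A, H2B, H3 and H4, and the linker histone H1 binds where the DNA enters and leaves it. Most genes in the HIST clusters are replication-dependent: they lack introns, are switched on at the entry into S phase through NPAT, and their mRNAs end in a conserved stem-loop instead of a poly(A) tail. The stem-loop is bound by SLBP, which guides 3' end cleavage together with the U7 small nuclear RNP and supports translation, and the mRNAs are degraded when DNA synthesis ends. Some of these genes also give polyadenylated transcripts that run past the stem-loop. The labels name polyadenylated RNA as the molecule sequenced, which bears on every level given below.

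The stem-loop was searched by its letters in the transcripts of GENCODE version 44 (GRCh38), in which 53 members were matched by gene identifier and 4 by an older symbol. It was present in 48 of the 50 protein-coding members, at 22 to 67 nt after the stop codon (median 35 nt). The sites of members that the results turn on are shown 5' to 3', with the stem of 6 nt, the loop of 4 nt and the second strand of the stem in capitals and up to 5 flanking bases on each side; the coordinates are those of the 16 bases in capitals.
HIST1H1C (chr6:26055744-26055759, reverse strand): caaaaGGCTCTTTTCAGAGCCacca
HIST3H2A (chr1:228457369-228457384, reverse strand): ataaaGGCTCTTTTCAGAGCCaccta
HIST2H2AC (chr1:149887391-149887406, forward strand): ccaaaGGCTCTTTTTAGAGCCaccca
HIST1H2BK (chr6:27146366-27146381, reverse strand): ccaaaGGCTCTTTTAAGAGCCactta
HIST1H2BB (chr6:26043232-26043247, reverse strand): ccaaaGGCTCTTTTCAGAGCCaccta
HIST1H3H (chr6:27810516-27810531, forward strand): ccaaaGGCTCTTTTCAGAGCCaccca
HIST1H3E (chr6:26225596-26225611, forward strand): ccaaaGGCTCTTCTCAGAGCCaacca
HIST1H4J (chr6:27824459-27824474, forward strand): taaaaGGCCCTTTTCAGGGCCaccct
HIST2H4B (chr1:149860769-149860784, reverse strand): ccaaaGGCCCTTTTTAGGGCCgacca
The most frequent form, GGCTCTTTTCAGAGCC, was found in 27 members and in none of the H4 genes. All 11 H4 genes carried a stem that begins with GGCCC, as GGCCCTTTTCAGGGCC in 8 and as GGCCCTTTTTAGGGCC in 3. The form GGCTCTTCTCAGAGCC was found in HIST1H3E alone among the members.

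Promoter sequences of RefSeq (GRCh38.p14; 250 bases before to 50 after the annotated start) were matched for 42 members. HIST1H3D and HIST1H2AD were given the same window, which holds the start of HIST1H2AD and is counted for it alone, so that 41 distinct windows were searched on both strands for 3 motifs, the TATA box (TATAAA), the CCAAT box (CCAAT) and the octamer bound by POU2F1 (ATTTGCAT), none of which overlaps another by its letters. CCAAT was found in all 32 distinct windows of H1, H2A, H2B and H3 genes and in 1 of 9 H4 promoters, against 34.6% of 35116 promoters in the table. TATAAA was found in 28 of the 41, against 11.5% of all promoters. ATTTGCAT was found in 15 of the 41, against 1.77% of all promoters; 8 of 12 H2A and 7 of 10 H2B promoters held it, and none of 3 H1, 7 H3 and 9 H4 promoters did. These are matches of letters and not mapped binding sites. Distinct windows are not all independent. Where both genes of a head-to-head H2A and H2B pair were matched, their windows overlap for most of their length. Motifs there are counted for both genes. This holds for the octamers of HIST2H2AC with HIST2H2BE, HIST1H2AG with HIST1H2BJ, HIST1H2AJ with HIST1H2BM and HIST1H2AM with HIST1H2BO. The windows of HIST1H2AC and HIST1H2AD also hold the starts of HIST1H2BC and HIST1H2BF, which had no matched window. Read along the gene, the octamer was reversed in the H2A windows that held it, except in HIST1H2AM. In the H2B windows that held it, it was forward, except in HIST1H2BO. The promoters of HIST1H1C, the most abundant member, of HIST1H2BK and of HIST1H4J are shown because the expression of these genes differed between groups, and that of HIST2H2AC because its window also holds the start of its divergent neighbour HIST2H2BE. Motif matches on either strand are in capitals.
HIST1H1C (chr6:26056421-26056720, reverse strand): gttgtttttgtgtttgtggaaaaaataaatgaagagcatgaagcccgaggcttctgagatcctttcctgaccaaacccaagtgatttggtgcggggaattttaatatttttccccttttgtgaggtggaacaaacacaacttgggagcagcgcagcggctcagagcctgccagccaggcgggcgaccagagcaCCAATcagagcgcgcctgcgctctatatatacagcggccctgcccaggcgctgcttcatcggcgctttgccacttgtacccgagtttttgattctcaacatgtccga
HIST1H2BK (chr6:27146809-27147108, reverse strand): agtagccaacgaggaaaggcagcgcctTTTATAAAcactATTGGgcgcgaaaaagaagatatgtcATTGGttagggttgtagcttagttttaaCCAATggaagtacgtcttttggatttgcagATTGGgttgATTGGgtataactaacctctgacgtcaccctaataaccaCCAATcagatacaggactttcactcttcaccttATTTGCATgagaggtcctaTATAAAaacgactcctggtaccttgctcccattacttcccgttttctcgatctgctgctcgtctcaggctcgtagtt
HIST2H2AC (chr1:149886668-149886967, forward strand): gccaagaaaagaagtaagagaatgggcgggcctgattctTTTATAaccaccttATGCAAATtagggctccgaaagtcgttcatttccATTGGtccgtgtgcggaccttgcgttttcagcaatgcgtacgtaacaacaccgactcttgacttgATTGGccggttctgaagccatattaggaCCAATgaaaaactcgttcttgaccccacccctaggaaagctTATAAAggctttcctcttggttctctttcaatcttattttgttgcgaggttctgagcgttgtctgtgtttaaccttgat
HIST1H4J (chr6:27823842-27824141, forward strand): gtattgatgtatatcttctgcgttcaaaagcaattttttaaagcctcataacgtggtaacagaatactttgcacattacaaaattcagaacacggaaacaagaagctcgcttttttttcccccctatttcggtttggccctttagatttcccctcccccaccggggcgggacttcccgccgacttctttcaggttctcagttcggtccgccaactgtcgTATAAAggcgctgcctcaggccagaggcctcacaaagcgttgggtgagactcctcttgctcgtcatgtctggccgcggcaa

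Histone genes made up a small part of the libraries and were very unequal among themselves. Their summed counts were 0.0144 to 0.0151% of all counts in CRLM1-OE, 0.0123 to 0.0129% in Ctrl and 0.0104 to 0.0105% in Anti, so that the 3 groups did not overlap. Only 5 members had a mean of at least 100 counts over the 9 samples: HIST1H1C, HIST3H2A, HIST1H2AC, HIST1H2BK and HIST1H2BD. Together they held 87.7% of all histone counts, and HIST1H1C alone held 43.9%. A further 18 members had a mean of 10 to 100 counts, and 34 had a mean under 10, of which 15 were under 1. All 9 samples held a count of 30 members. With TMM factors, as in the tests below, the summed CPM was 138 to 144 in CRLM1-OE and 130 to 137 in Ctrl. Without HIST1H1C it was 73.5 to 75.8 and 70.2 to 75.3, so that these groups then overlapped. Anti lay below both, at 104 to 105 with HIST1H1C and 64.3 to 64.9 without it. In levels scaled for length, the order by mean FPKM was HIST1H1C (76.1), HIST1H2BK (28.8), HIST3H2A (18.4), HIST1H2BD (11.2) and HIST1H2AC (6.98), followed at a distance by HIST1H4J (2.29). No H3 gene was above HIST1H3D, which had a mean FPKM of 1.06.

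**Figure D1:**
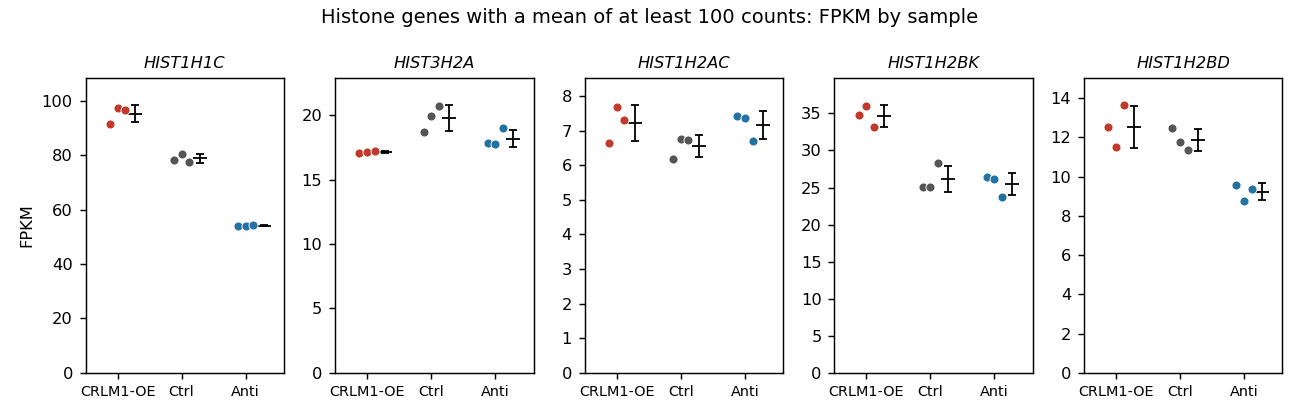
FPKM of the 5 histone genes with a mean of at least 100 counts; each point is 1 sample of CRLM1-OE, Ctrl or Anti, and bars give the mean ± SD of 3 samples, on axes that start at 0. HIST1H1C lay between 91.7 and 97.6 in CRLM1-OE, between 77.5 and 80.6 in Ctrl and between 54.0 and 54.5 in Anti, while the points of HIST1H2AC overlapped in all groups.

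Counts were compared by edgeR's quasi-likelihood test on the 6 samples of each comparison, with TMM scaling and Benjamini-Hochberg adjustment over all genes tested; "edgeR adjusted p" refers to this test, a gene passed it at an adjusted p of at most 0.05, and a DEG changed at least 2-fold in addition. In CRLM1-OE against Ctrl, 8 of the 54 members tested were up-regulated (15% of all 29846 genes tested) and 2 were down-regulated (16.8%). With total counts in place of TMM factors these numbers were 10 and 1. Only HIST1H2BB was an up-regulated DEG (2.5% of all genes tested) and no member was a down-regulated DEG (0.915%). The number of up-regulated DEGs was 4 with total counts, without CRLM1-OE replicate 2 or without Ctrl replicate 2, and 2 without CRLM1-OE replicate 3 or Ctrl replicate 3, and 1 member was a down-regulated DEG without CRLM1-OE replicate 1. In CRLM1-OE against Anti, 13 of the 55 members tested were up-regulated (17.1% of 30183 genes) and 2 were down-regulated (18.5%), and the numbers were 13 and 0 with RLE factors or total counts. This comparison gave 7 up-regulated DEGs (HIST2H2AA4, HIST1H2AH, HIST1H2AJ, HIST1H2BC, HIST1H2BB, HIST1H3B and HIST1H4J), beside 3.09% of all genes, and no member was a down-regulated DEG (2.56%). The 7 became 5 in DESeq2 or with the replicate block, 4 with filterByExpr, 3 with at least 10 counts in every sample and 0 in limma on log2(FPKM + 1). They became 10 without Anti replicate 2 and 6 without any other single replicate. A down-regulated DEG, 1 member, appeared without CRLM1-OE replicate 3, Anti replicate 1 or Anti replicate 2. In Anti against Ctrl, none of 54 members was up-regulated (11.5% of 29714 genes; DEGs 0.683%) and 5 were down-regulated (12.2%), with HIST1H4J and HIST2H2AA4 as DEGs (0.38%). The number of down-regulated DEGs was 1 without Ctrl replicate 2 or Anti replicate 2, with total counts, in the fit of all 9 samples and in limma on log2(FPKM + 0.1). For this count of 0, 1 member was higher at an unadjusted p under 0.05, and DESeq2 and limma on FPKM also found no member up-regulated. The 3 comparisons share their groups pairwise and are not independent of each other.

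The share of members passing depended on their counts, as it did over all genes. Among the 5 members with a mean of at least 100 counts, 2 rose and 1 fell in CRLM1-OE against Ctrl, where 29.2% and 38.8% of all genes in this count range did. Against Anti 3 rose and none fell (33.9% and 40.2%). Among the 18 members with 10 to 100 counts, 6 rose and 1 fell in this comparison (20.3% and 9.06% of all such genes), and 7 rose and 2 fell against Anti (21.5% and 16.1%). Of the members under 10 counts, none passed against Ctrl (1.32% of all such genes rose and 0.655% fell), and 3 rose and none fell against Anti (1.82% and 1.19%). In Anti against Ctrl, 3 of the 5 most abundant members fell (28.9% of all such genes) and none rose (25.3%), 2 of the 18 in the middle range fell (5.22%) and none rose (9.11%), and none under 10 counts passed (0.645% higher and 0.416% lower). Over the 23 members with a mean of at least 10 counts, the median log2 fold change was 0.10 in CRLM1-OE against Ctrl, 0.40 against Anti and -0.30 in Anti against Ctrl, beside medians of all such genes between -0.017 and 0.0051. The medians over all members tested were 0.30, 0.58 and -0.32, beside 0.017, -0.023 and 0.0047 over all genes tested. With members at 0 in a group set to their bound (3 counts over the group) and those at or under 3 counts in both groups left out, these became 0.24 (46 members), 0.47 (47 members) and -0.32 (44 members). By TMM-scaled CPM, the 3 samples of CRLM1-OE lay above all Ctrl samples for 7 members and below them for 5 (18.3% and 19.4% of all genes). Against Anti these numbers were 16 and 2 (20.3% and 20.8%), and Anti lay above Ctrl for 1 member and below it for 11 (15.2% and 15.6%).

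**Figure D2:**
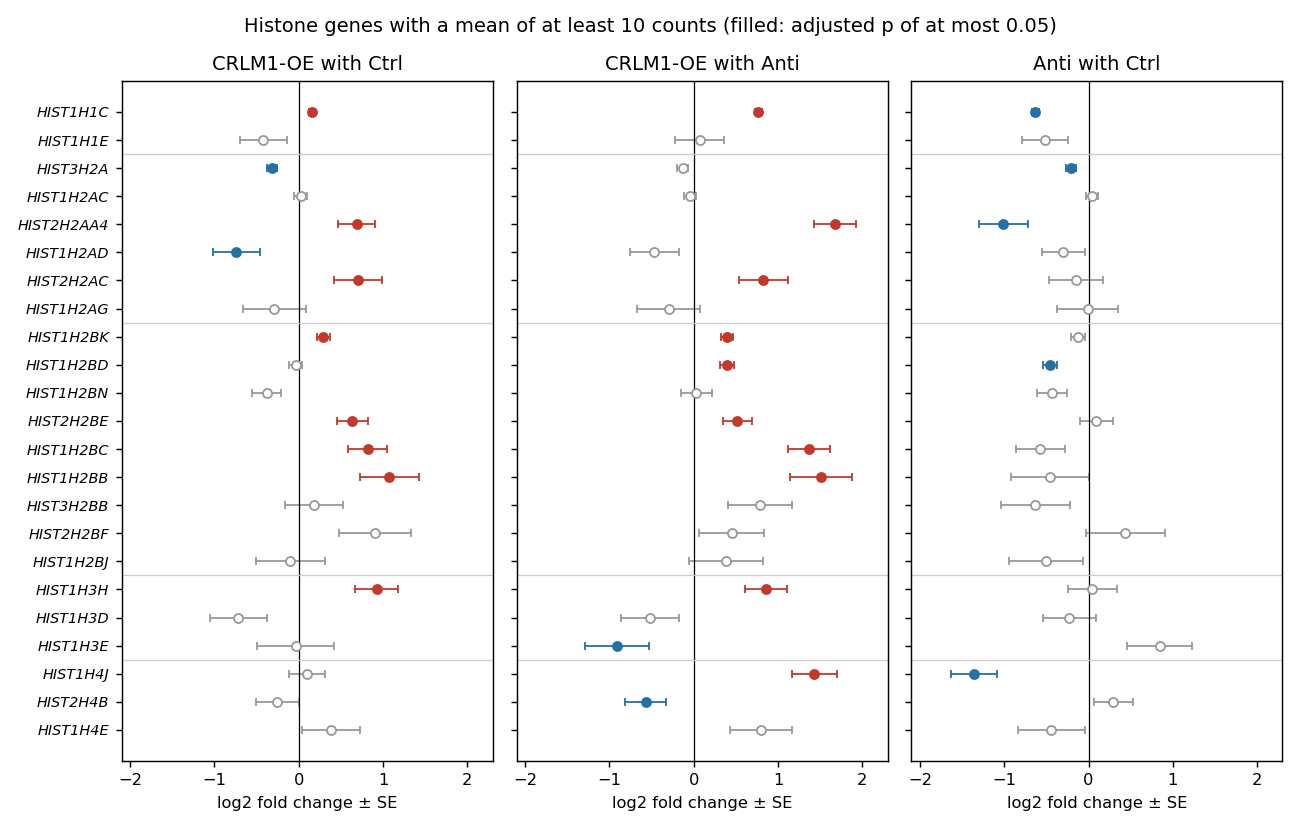
Log2 fold changes ± SE of the 23 histone genes with a mean of at least 10 counts, ordered by family (H1, H2A, H2B, H3 and H4 from top to bottom, divided by lines) in the 3 comparisons, with 3 samples per group. Filled points passed the test (red higher, blue lower) and open points did not; 10 members were filled on the right side against Anti and none on the right side in Anti against Ctrl.

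Of the H1 genes, HIST1H1C, which encodes the linker histone H1.2, carried nearly all of the family's signal and differed between all 3 groups. It lies on the reverse strand of chromosome 6 as a single exon (chr6:26055740-26056470), and its only annotated transcript ends 4 nt after the stem-loop. Its FPKM was 91.7, 97.6 and 96.65 in CRLM1-OE, 78.5, 80.6 and 77.5 in Ctrl, and 54.0, 54.0 and 54.45 in Anti. Every CRLM1-OE sample was above every Ctrl sample, and these were above every Anti sample. By TMM-scaled CPM the levels were 66.9 ± 2.23 in CRLM1-OE, compared with 59.9 ± 1.48 in Ctrl and 39.3 ± 0.318 in Anti (SD, n = 3 each). The log2 fold change was 0.16 ± 0.037 (SE; edgeR adjusted p = 8.78e-05) against Ctrl and 0.77 ± 0.038 (edgeR adjusted p = 3.97e-88) against Anti. Anti was below Ctrl by a log2 fold change of -0.63 ± 0.041 (edgeR adjusted p = 2.28e-52), and each of these calls was kept in all 15 alternatives. With total counts in place of TMM factors, which moved the median of all genes from 0.017 to 0.16 in CRLM1-OE against Ctrl, the difference of HIST1H1C from Ctrl was 0.30 on the log2 scale.

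The other H1 genes were low and did not pass. HIST1H1E, which encodes H1.4, had 25, 26 and 27 counts in CRLM1-OE, 46, 27 and 25 in Ctrl and 19, 23 and 29 in Anti, with log2 fold changes of -0.42 ± 0.28 (edgeR adjusted p = 0.290) against Ctrl and 0.071 ± 0.29 (edgeR adjusted p = 0.878) against Anti. HIST1H1T, a gene for the testis form of H1, had 2 counts in 1 Ctrl sample and none elsewhere, and the pseudogenes HIST1H1PS1 and HIST1H1PS2 had 2 counts and 1 count over all 9 samples.

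The H2A genes moved in both directions. HIST3H2A was lower in CRLM1-OE, HIST1H2AC did not pass in any comparison, and HIST2H2AA4 and HIST2H2AC were higher in CRLM1-OE. HIST3H2A and HIST1H2AC encode canonical H2A proteins of the replication-dependent set, and both have annotated transcripts that run past the stem-loop, by up to 1110 and 1128 nt. The FPKM of HIST3H2A was 17.1, 17.15 and 17.2 in CRLM1-OE, 18.7, 19.9 and 20.7 in Ctrl, and 17.9, 17.75 and 19.0 in Anti. All CRLM1-OE samples were therefore below all others, and the Anti samples overlapped with those of Ctrl on this scale. The log2 fold change of CRLM1-OE was -0.32 ± 0.062 (edgeR adjusted p = 1.86e-06) against Ctrl, a call kept in all 15 alternatives, and -0.13 ± 0.063 (edgeR adjusted p = 0.0989) against Anti. That of Anti against Ctrl was -0.21 ± 0.062 (edgeR adjusted p = 0.00391). This last call was lost without Ctrl replicate 3 (-0.17, edgeR adjusted p = 0.0637), with total counts (-0.11, edgeR adjusted p = 0.254) and in both limma fits.

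HIST1H2AC had an FPKM of 6.64, 7.67 and 7.32 in CRLM1-OE, 6.19, 6.77 and 6.72 in Ctrl, and 7.41, 7.37 and 6.71 in Anti, and the groups overlapped. Its log2 fold change was 0.021 ± 0.073 (edgeR adjusted p = 0.862) in CRLM1-OE against Ctrl, -0.043 ± 0.071 (edgeR adjusted p = 0.674) against Anti and 0.041 ± 0.075 (edgeR adjusted p = 0.749) in Anti against Ctrl, on a mean of 496 counts.

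HIST2H2AA4 had 56, 43 and 79 counts in CRLM1-OE, 33, 43 and 26 in Ctrl, and 21, 14 and 18 in Anti. As TMM-scaled CPM these were 1.5 ± 0.429, 0.938 ± 0.274 and 0.468 ± 0.0823 (SD, n = 3 each), so that all Anti samples were below all others while 1 Ctrl sample reached into the range of CRLM1-OE. The log2 fold change was 0.69 ± 0.22 (edgeR adjusted p = 0.00651) in CRLM1-OE against Ctrl, 1.68 ± 0.25 (edgeR adjusted p = 2.63e-10) against Anti, and -1.01 ± 0.29 (edgeR adjusted p = 0.00278) in Anti against Ctrl. Of the 151-nt windows in its transcript, 99.7% also occur in another annotated transcript, so that its uniquely mapped reads are few and its level is uncertain. The call against Ctrl was lost without CRLM1-OE replicate 3 (0.43, edgeR adjusted p = 0.212) or Ctrl replicate 1 (0.57, edgeR adjusted p = 0.0582), in DESeq2 (adjusted p = 0.0641) and in limma (adjusted p = 0.060 and 0.0787 with pseudocounts of 0.1 and 1). That of Anti against Ctrl was lost without Ctrl replicate 2 (-0.75, edgeR adjusted p = 0.0902) and in limma on log2(FPKM + 1).

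HIST2H2AC and HIST1H2AD passed without a 2-fold change and are named because they did, after their values were seen. HIST2H2AC had 33, 42 and 30 counts in CRLM1-OE, 21, 19 and 20 in Ctrl, and 19, 25 and 13 in Anti, and all CRLM1-OE samples were above all others. Its log2 fold change was 0.70 ± 0.29 (edgeR adjusted p = 0.0442) against Ctrl and 0.83 ± 0.29 (edgeR adjusted p = 0.0130) against Anti. The first was lost without CRLM1-OE replicate 2 (0.46), Ctrl replicate 1 (0.64) or Ctrl replicate 2 (0.72), and the second without CRLM1-OE replicate 2 (0.58) or Anti replicate 3 (0.65). DESeq2 ended both, the fit of all 9 samples the first and limma on log2(FPKM + 1) the second. HIST1H2AD went the other way, with 26, 19 and 22 counts in CRLM1-OE, 30, 40 and 33 in Ctrl, and 22, 29 and 37 in Anti. Its log2 fold change against Ctrl was -0.74 ± 0.28 (edgeR adjusted p = 0.0287), a call that was lost without CRLM1-OE replicate 2 (-0.72) or 3 (-0.72) and without Ctrl replicate 2 (-0.56) or 3 (-0.69), with total counts, in DESeq2 and in limma on log2(FPKM + 1).

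HIST1H2AJ and HIST1H2AH were DEGs against Anti on very few counts. HIST1H2AJ had 11, 2 and 5 counts in CRLM1-OE, 3, 1 and 0 in Ctrl, and 0, 0 and 2 in Anti, a scaled ratio of CRLM1-OE to Anti of 8.59 with an exact 95% counting interval of 2.06 to 76.4. HIST1H2AH had 3, 5 and 9 counts in CRLM1-OE, 1, 3 and 3 in Ctrl, and 0, 3 and 0 in Anti, a ratio of 5.41 (1.57 to 28.8). The intervals cover counting error only. Their edgeR adjusted p against Anti was 0.0143 and 0.0408, respectively. HIST1H2AJ lost its call without CRLM1-OE replicate 1, Anti replicate 1 or Anti replicate 2 (2.19, 2.302 and 2.36 on the log2 scale), and 55.8% of its windows are shared with another transcript. HIST1H2AH lost its call without CRLM1-OE replicate 2 or 3 (2.32 and 1.85) and without Anti replicate 1 or 3 (1.74 and 1.82). DESeq2 and limma on log2(FPKM + 1) ended both calls (DESeq2 adjusted p = 0.0731 and 0.114), and limma on log2(FPKM + 0.1) that of HIST1H2AH. The remaining H2A members, HIST1H2AG, HIST1H2AM, HIST1H2AI, HIST2H2AB, HIST1H2AK, HIST1H2AB and 2 pseudogenes, had mean counts of 0.11 to 15.2 and passed in no comparison. Summed over the 15 H2A genes, the level was 34.0 ± 0.919 TMM-scaled CPM in CRLM1-OE, compared with 37.2 ± 2.59 in Ctrl and 34.4 ± 0.417 in Anti (SD, n = 3 each); the ratio of CRLM1-OE to Ctrl, 0.913 by CPM, was 1.003 by summed FPKM.

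Of the H2B genes, 4 of 15 tested rose in CRLM1-OE against Ctrl (15% of all genes) and 5 of 16 rose against Anti (17.1%), and none fell (16.8% and 18.5%). HIST1H2BK, a replication-dependent H2B gene with a single annotated transcript that ends 5 nt past the stem-loop (chr6:27146361-27146855, reverse strand), was second to HIST1H1C in FPKM. Its FPKM was 34.7, 36.1 and 33.2 in CRLM1-OE, 25.1, 25.1 and 28.25 in Ctrl, and 26.5, 26.1 and 23.8 in Anti. All CRLM1-OE samples were above all others, and Ctrl and Anti overlapped. The log2 fold change was 0.29 ± 0.073 (edgeR adjusted p = 0.000273) against Ctrl and 0.40 ± 0.073 (edgeR adjusted p = 3.16e-07) against Anti, and both calls were kept in all 15 alternatives. Anti against Ctrl gave -0.13 ± 0.080 (edgeR adjusted p = 0.319).

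HIST1H2BD differed in Anti from the other groups. Its FPKM was 12.5, 11.5 and 13.6 in CRLM1-OE, 12.5, 11.8 and 11.4 in Ctrl, and 9.57, 8.74 and 9.39 in Anti, so that the Anti samples were below all others and CRLM1-OE and Ctrl overlapped. The log2 fold change of CRLM1-OE was 0.40 ± 0.080 (edgeR adjusted p = 2.95e-06) against Anti and -0.036 ± 0.075 (edgeR adjusted p = 0.770) against Ctrl, where it was 0.11 with total counts. Anti against Ctrl gave -0.46 ± 0.082 (edgeR adjusted p = 3.00e-07). Both calls that involve Anti were kept in all 15 alternatives. The gene overlaps 1 annotated gene on the opposite strand and 3 on the same strand, and how reads of these were counted was not stated.

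HIST1H2BC and HIST1H2BB, low-count H2B genes of the HIST1 cluster, showed larger differences. HIST1H2BC had 67, 43 and 56 counts in CRLM1-OE, 34, 26 and 27 in Ctrl, and 18, 18 and 25 in Anti. By TMM-scaled CPM this was 1.39 ± 0.152, 0.790 ± 0.0279 and 0.545 ± 0.145 (SD, n = 3 each), and no group overlapped with another. Fitted log2 fold changes were 0.82 ± 0.23 (edgeR adjusted p = 0.00174) against Ctrl and 1.37 ± 0.25 (edgeR adjusted p = 2.60e-07) against Anti, both kept in all 15 alternatives, and -0.57 ± 0.29 (edgeR adjusted p = 0.166) in Anti against Ctrl. The span of the gene overlaps 3 annotated genes on the opposite strand, among them HFE and H4C3, and the use of strand in counting was not stated. Whether their exons overlap its own, so that their reads could be counted with it, was not examined.

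HIST1H2BB (chr6:26043227-26043713, reverse strand) had 28, 24 and 26 counts in CRLM1-OE, 10, 10 and 14 in Ctrl, and 8, 11 and 7 in Anti. All CRLM1-OE samples were above all others, at 0.660 ± 0.0234 TMM-scaled CPM against 0.316 ± 0.0940 in Ctrl and 0.230 ± 0.0546 in Anti (SD, n = 3 each). In log2 fold change this was 1.08 ± 0.34 (edgeR adjusted p = 0.00682) against Ctrl and 1.51 ± 0.36 (edgeR adjusted p = 0.000143) against Anti. The call against Ctrl was lost without Ctrl replicate 1 (0.89, edgeR adjusted p = 0.0558), and that against Anti was kept in all alternatives run.

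HIST2H2BE, named after its values were seen, had 95, 92 and 83 counts in CRLM1-OE, 53, 54 and 54 in Ctrl, and 72, 52 and 57 in Anti, with all CRLM1-OE samples above all others. It is annotated only with a transcript that runs 1729 nt past the stem-loop. On the log2 scale the difference was 0.64 ± 0.18 (edgeR adjusted p = 0.00191) against Ctrl and 0.52 ± 0.17 (edgeR adjusted p = 0.00976) against Anti, the latter lost without CRLM1-OE replicate 2 (0.42) or Anti replicate 2 (0.43). The other 11 H2B members, with mean counts of 0.11 to 71.6, did not pass. Of these HIST1H2BN was the most abundant, with log2 fold changes of -0.38 ± 0.17 (edgeR adjusted p = 0.0864) in CRLM1-OE against Ctrl and -0.43 ± 0.18 (edgeR adjusted p = 0.0576) in Anti against Ctrl. Summed over the 16 H2B genes the level was 34.1 ± 0.226 TMM-scaled CPM in CRLM1-OE, compared with 30.3 ± 0.385 in Ctrl and 25.3 ± 0.751 in Anti (SD, n = 3 each), without overlap between groups.

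**Figure D3:**
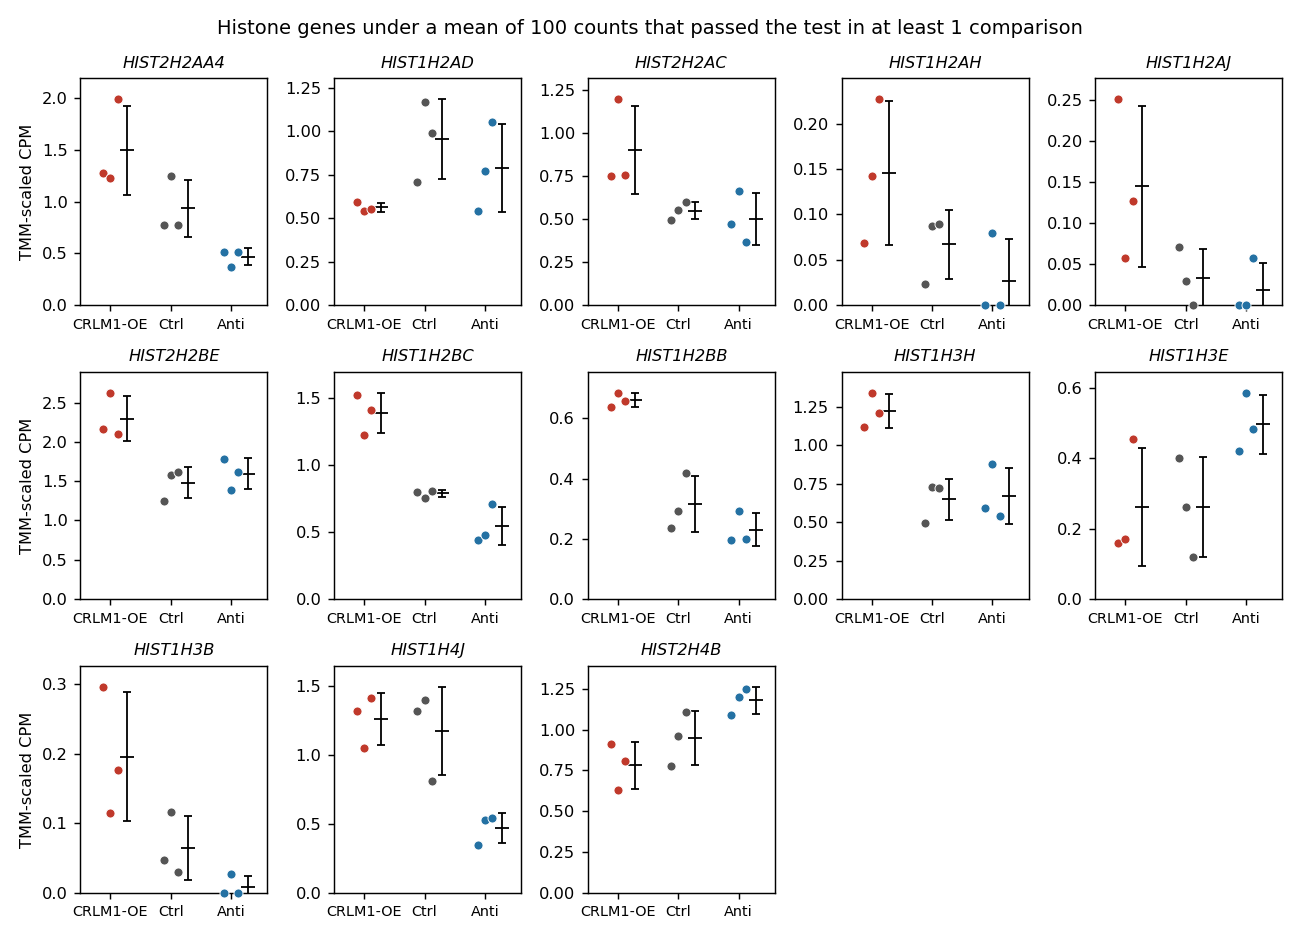
TMM-scaled CPM of the 13 histone genes with a mean under 100 counts that passed the test in at least 1 comparison; each point is 1 sample, bars give the mean ± SD of 3 samples and are drawn down to 0 at most. In HIST1H2BB and HIST1H3H the CRLM1-OE points stand above both other groups, in HIST1H4J the Anti points stand below both other groups, and HIST1H2AH, HIST1H2AJ and HIST1H3B rest on points at or near 0.

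The H3 genes were all at or under a mean of 32.2 counts and passed in both directions. HIST1H3H, named after its values were seen, had 49, 47 and 48 counts in CRLM1-OE, 21, 25 and 24 in Ctrl, and 24, 33 and 19 in Anti, with all CRLM1-OE samples above all others. Its log2 fold change was 0.93 ± 0.25 (edgeR adjusted p = 0.00111) against Ctrl and 0.86 ± 0.25 (edgeR adjusted p = 0.00181) against Anti, both kept in all 15 alternatives, and 0.042 ± 0.29 (edgeR adjusted p = 0.957) in Anti against Ctrl. HIST1H3B, which encodes the canonical H3.1, had 13, 4 and 7 counts in CRLM1-OE, 2, 4 and 1 in Ctrl, and 0, 1 and 0 in Anti. It was a DEG against Anti (edgeR adjusted p = 0.000327), with a scaled ratio of 22.9 whose exact 95% counting interval ran from 3.74 to 943. The call was kept in the 13 alternatives in which the gene was tested. Against Ctrl the ratio was 3.18 (1.33 to 8.74; edgeR adjusted p = 0.0741).

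HIST1H3E, also named after its values were seen, fell against Anti, with 7, 6 and 18 counts in CRLM1-OE, 17, 9 and 4 in Ctrl, and 17, 22 and 17 in Anti. Its fitted log2 fold change was -0.91 ± 0.38 (edgeR adjusted p = 0.0494). The ranges overlapped in 1 sample, and the call was lost without CRLM1-OE replicate 1 (-0.63) or 2 (-0.71), without Anti replicate 2 (-0.76) or 3 (-0.93), with RLE factors or total counts, in DESeq2, in both limma fits and in the fit of all 9 samples. HIST1H3D, HIST2H3D, HIST1H3J, HIST1H3A, HIST1H3C, HIST3H3 and the pseudogene HIST1H3PS1 passed in no comparison. The summed H3 level was 2.22 ± 0.174 TMM-scaled CPM in CRLM1-OE, compared with 1.82 ± 0.271 in Ctrl and 1.96 ± 0.104 in Anti (SD, n = 3 each); the ratio of CRLM1-OE to Anti was 1.14 by CPM and 0.963 by FPKM.

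Among the H4 genes none passed in CRLM1-OE against Ctrl by edgeR, where 1 of 11 had an unadjusted p under 0.05, and HIST1H4J stood out by its low level in Anti. It had 58, 37 and 56 counts in CRLM1-OE, 56, 48 and 27 in Ctrl, and 14, 20 and 19 in Anti. By TMM-scaled CPM this was 1.26 ± 0.186, 1.18 ± 0.321 and 0.473 ± 0.110 (SD, n = 3 each), and all Anti samples were below all others. In log2 fold change this was 1.43 ± 0.27 (edgeR adjusted p = 3.95e-07) in CRLM1-OE against Anti and -1.35 ± 0.27 (edgeR adjusted p = 7.28e-06) in Anti against Ctrl, both kept in all 15 alternatives, and 0.099 ± 0.22 (edgeR adjusted p = 0.774) in CRLM1-OE against Ctrl. With 88.7% of its windows shared with another transcript, its level is uncertain.

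HIST2H4B, named after its values were seen, had 40, 22 and 32 counts in CRLM1-OE, 33, 33 and 37 in Ctrl, and 44, 45 and 44 in Anti. Its log2 fold change against Anti was -0.57 ± 0.24 (edgeR adjusted p = 0.0484), with all CRLM1-OE samples below all Anti samples. Every one of its windows is shared with another transcript, and the call was lost without CRLM1-OE replicate 2 (-0.45) or 3 (-0.57), without Anti replicate 2 (-0.55) or 3 (-0.53), with RLE factors or total counts, in DESeq2 and in the fit of all 9 samples. HIST1H4E, the third H4 gene above a mean of 10 counts, had 19, 17 and 26 counts in CRLM1-OE, 15, 14 and 15 in Ctrl, and 14, 9 and 11 in Anti, with a log2 fold change against Anti of 0.80 ± 0.36 (edgeR adjusted p = 0.0754). The other 8 H4 genes had means of 0.444 to 8 counts and did not pass.

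Annotation separated the abundant members only in part. Of the 48 members with a stem-loop, 10 have an annotated transcript that holds it and runs more than 100 nt further. Their median mean count was 23.5, against 4.5 in the other 38. Transcripts that do not hold the stem-loop were left out of this measure. The 38 therefore include HIST1H2BD, HIST1H2BC, HIST1H2BN, HIST2H2BF and HIST1H2BJ, whose annotated genes extend far past it. In HIST1H2BD the stem-loop ends at position 26158602 and the gene at 26171349. The most abundant member, HIST1H1C, belongs to the 38. This split was made after the values were seen and is given as a description. In CRLM1-OE against Anti, 37 members whose stem-loop transcripts all end within 100 nt of it were tested. Of these, 11 were up-regulated, HIST1H2BD and HIST1H2BC among them, and none was down-regulated (17.1% and 18.5% of all genes). Of the 10 with a longer stem-loop transcript, 2 rose (HIST1H3H and HIST2H2BE) and 2 fell (HIST1H3E and HIST2H4B). In CRLM1-OE against Ctrl these numbers were 6 and 1 of 37 and 2 and 1 of 10 (15% and 16.8% of all genes), and in Anti against Ctrl none and 4 of 37 and none and 1 of 9 (11.5% and 12.2%). In the members with at least 10 counts, the median log2 fold change against Anti was 0.45 over 15 of the first class. It was -0.043 over 7 with a longer stem-loop transcript. The 15 include HIST1H2BD, HIST1H2BC, HIST1H2BN, HIST2H2BF and HIST1H2BJ. By cluster, 10 of 42 HIST1 genes rose and 1 fell against Anti, and 3 of 9 HIST2 genes rose and 1 fell, beside the same shares of all genes. No pseudogene passed in any comparison.

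Most H2A and H2B genes of the clusters lie head to head and share the DNA between their starts. Within 500 nt, 10 such H2A-H2B pairs were found among the members, with 170 to 289 nt between the annotated starts. These include HIST2H2AA4 with the H2B pseudogene HIST2H2BC, whose starts are 289 nt apart. Of the windows in their transcripts, 99.7% and 74.7% are shared with other transcripts. The partners differed in level: the ratio of their mean FPKM ranged from 1.79 to 157, and it was above 5 in 5 pairs. In some of these 5 the lower partner rested on few counts, so that the size of the ratio is uncertain. The mean was 3 counts for HIST1H2AH, 1.67 for HIST1H2BF and 0.333 for HIST1H2BM. HIST1H2BK (28.8) exceeded HIST1H2AH (0.183) by 157-fold, HIST3H2A (18.4) exceeded HIST3H2BB (0.146) by 126-fold, and HIST1H2AC (6.98) exceeded HIST1H2BC (0.968) by 7.21-fold. These ratios depend on the scaling for length: by mean count the last 2 were 47.9 and 14.2, that of HIST1H2BN to HIST1H2AK was 35.8 in place of 2.53, and the order turned for HIST2H2AC with HIST2H2BE and for HIST1H2BJ with HIST1H2AG. The partners also differed in their calls. HIST1H2BC rose in CRLM1-OE against Ctrl while HIST1H2AC, 219 nt away, gave 0.021. HIST3H2A fell while HIST3H2BB gave 0.18 ± 0.35 (edgeR adjusted p = 0.742). In contrast, HIST2H2BE and HIST2H2AC, whose starts are 236 nt apart, both rose in CRLM1-OE against Ctrl (0.64 and 0.70) and against Anti (0.52 and 0.83). The difference between the partners' fold changes was not tested.

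**Figure D4:**
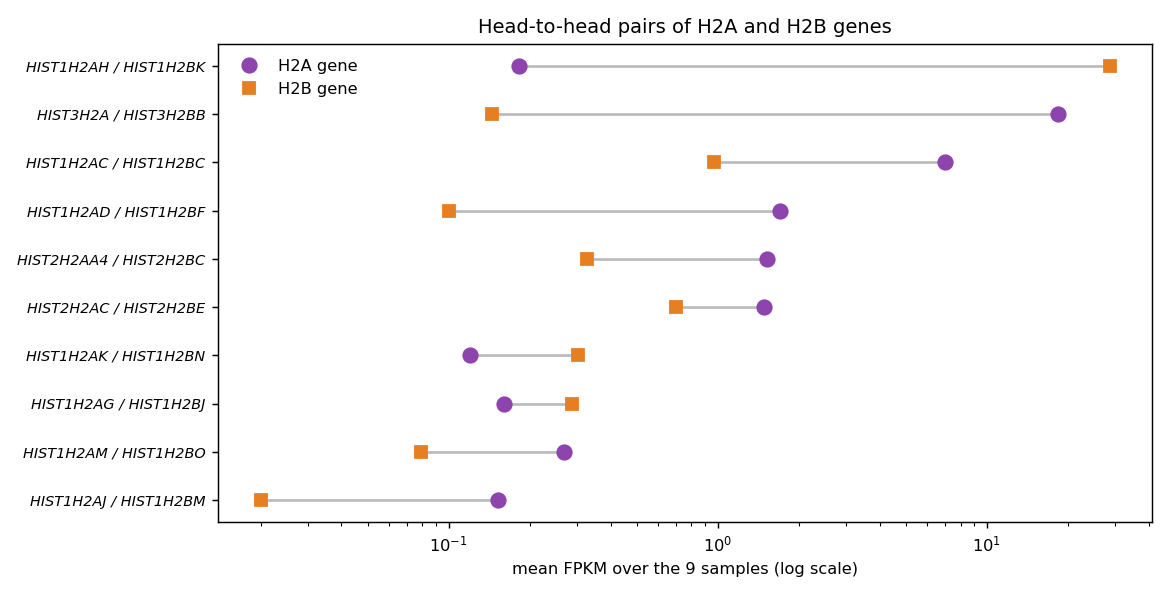
Mean FPKM over the 9 samples, on a log scale, of the H2A gene (circle) and the H2B gene (square) in each of the 10 head-to-head pairs, ordered by the higher partner. The H2B partner of HIST2H2AA4 is a pseudogene. The lines are longest for HIST1H2AH with HIST1H2BK (157-fold) and HIST3H2A with HIST3H2BB (126-fold) and shortest for HIST1H2AG with HIST1H2BJ (1.79-fold). HIST1H2AH had a mean of 3 counts.

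The replication-independent variants are encoded outside the clusters, most of them by genes with polyadenylated mRNAs, and H2AFX also gives a stem-loop mRNA. Most of these variants had at least 100 counts, as did most of the processing, S phase, chaperone, mitosis and epithelial marker genes below. Of all genes with such counts, 29.2% rose and 38.8% fell against Ctrl, and 33.9% and 40.2% against Anti. In Anti against Ctrl these shares were 25.3% and 28.9%. Of 15 variants tested in CRLM1-OE against Ctrl, 5 rose and 4 fell. Against Anti 5 rose and 5 fell, and in Anti against Ctrl 3 of 13 rose and 5 fell. H1FX, encoding the linker variant H1X, had an FPKM of 122, 122 and 115 in CRLM1-OE, 81.1, 88.6 and 80.85 in Ctrl, and 74.0, 76.3 and 76.3 in Anti, and its log2 fold changes were 0.40 ± 0.027 (edgeR adjusted p = 9.84e-49) against Ctrl and 0.62 ± 0.025 (edgeR adjusted p = 2.87e-132) against Anti. H1F0, encoding H1.0 of differentiated cells, went the other way, with -0.13 ± 0.023 (edgeR adjusted p = 6.99e-08) against Ctrl and -0.30 ± 0.020 (edgeR adjusted p = 4.68e-49) against Anti. H2AFX, whose product is phosphorylated at DNA breaks, fell by 0.37 on the log2 scale against Anti (edgeR adjusted p = 2.45e-14) and gave 0.11 ± 0.051 (edgeR adjusted p = 0.0822) against Ctrl. H3F3A and H3F3B, both encoding H3.3, had log2 fold changes of 0.073 and 0.066 against Ctrl and of 0.21 and -0.076 against Anti, all of which passed. H2AFZ, encoding H2A.Z, gave -0.064 against Ctrl (edgeR adjusted p = 0.0497) and 0.090 against Anti (edgeR adjusted p = 0.000896).

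Of 19 genes for the transcription and 3' end processing of histone mRNA, 5 rose and 7 fell in CRLM1-OE against Ctrl and 6 rose and 10 fell against Anti, and in Anti against Ctrl 5 rose and 6 fell. SLBP, the stem-loop binding protein, had an FPKM of 22.3, 22.7 and 22.6 in CRLM1-OE, 19.8, 18.8 and 18.6 in Ctrl, and 25.2, 25.1 and 25.5 in Anti, so that no group overlapped with another. Its log2 fold change was 0.13 ± 0.041 (edgeR adjusted p = 0.00881) against Ctrl, -0.21 ± 0.038 (edgeR adjusted p = 1.23e-07) against Anti and 0.31 ± 0.040 (edgeR adjusted p = 9.58e-14) in Anti against Ctrl. NPAT, the coactivator of histone genes, was lower in CRLM1-OE, by log2 fold changes of -0.53 ± 0.12 (edgeR adjusted p = 9.93e-05) and -0.75 ± 0.12 (edgeR adjusted p = 1.28e-09). CASP8AP2, needed for the histone locus body, fell by 0.60 against Anti (edgeR adjusted p = 0.000621) and gave -0.11 ± 0.18 (edgeR adjusted p = 0.694) against Ctrl. Of the U7-linked factors, ZNF473 rose by 0.16 and 0.23 (edgeR adjusted p = 0.00550 and 1.91e-05), and LSM11 gave -0.10 and 0.082 (edgeR adjusted p = 0.348 and 0.460).

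The S phase list, which holds replication and E2F target genes, was lower in CRLM1-OE for most of its members, while the histone genes that passed were mostly higher. Of 43 genes, 2 rose and 30 fell against Ctrl (median log2 fold change -0.34), and 2 rose and 36 fell against Anti (-0.54); in Anti against Ctrl 25 rose and 4 fell (0.24). POLA1, a subunit of DNA polymerase alpha, fell by 1.18 and 1.70 on the log2 scale, and the down-regulated DEGs against Anti included E2F1, CCNE2, FEN1, GINS2, MCM3, MCM4 and MCM10, with log2 fold changes from -1.84 (CCNE2) to -1.03 (GINS2). CCNE2, the cyclin E2 of the entry into S phase, had an FPKM of 0.35, 0.31 and 0.25 in CRLM1-OE, 0.38, 0.56 and 0.44 in Ctrl, and 0.99, 1.12 and 1.05 in Anti, and was an up-regulated DEG in Anti against Ctrl (1.12 ± 0.15, edgeR adjusted p = 7.59e-13). PCNA, the sliding clamp, gave -0.25 ± 0.036 (edgeR adjusted p = 2.57e-11) against Ctrl and -0.30 ± 0.033 (edgeR adjusted p = 8.69e-19) against Anti. Of 21 histone chaperones, 5 rose and 12 fell against Ctrl (median -0.20), 4 rose and 15 fell against Anti (-0.37), and 11 rose and 3 fell in Anti against Ctrl (0.15). ASF1B, which carries H3 and H4, and RBBP4, a subunit of the CAF-1 assembly factor, were DEGs against Anti (-1.15 ± 0.075 and -1.27 ± 0.029). The mitosis list of 15 genes gave 2 higher and 7 lower against Ctrl, 6 higher and 5 lower against Anti, and 2 higher and 9 lower in Anti against Ctrl, and CDC20, an activator of the anaphase-promoting complex, rose by 1.24 ± 0.026 against Anti. The share of cells in S phase was not measured in these samples, and in bulk RNA fewer cells in a phase and less RNA per cell cannot be told apart.

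**Figure D5:**
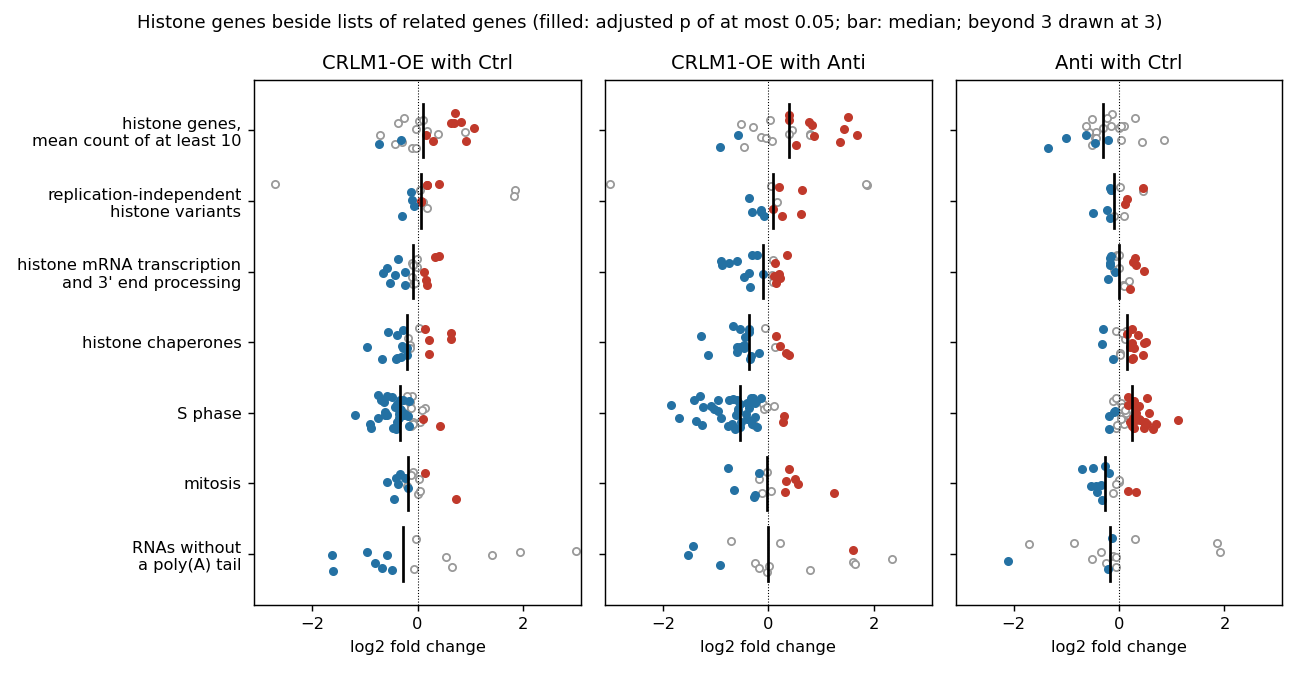
Log2 fold changes of single genes (points, filled where they passed, red higher and blue lower) for the 23 histone genes with a mean of at least 10 counts and 6 lists of related genes; vertical bars are medians and values beyond 3 are drawn at 3. The medians of the S phase list were -0.34, -0.54 and 0.24 in the 3 comparisons, and those of the histone genes were 0.10, 0.40 and -0.30.

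RNAs that carry no poly(A) tail also differed between the groups. The list of 14 such genes that were tested had a summed FPKM of 417 to 620 in CRLM1-OE, 1127 to 1798 in Ctrl and 1250 to 1468 in Anti, without overlap of CRLM1-OE with the others. RN7SL1 and RN7SL2 carried this sum: without them it was 38.9 to 48.0 in CRLM1-OE, 50.1 to 63.2 in Ctrl and 23.5 to 27.2 in Anti, so that CRLM1-OE then lay above Anti. Against Ctrl none rose and 7 fell, beside 15% and 16.8% of all genes tested. Against Anti 1 rose and 3 fell (17.1% and 18.5%), and in Anti against Ctrl none rose and 3 fell (11.5% and 12.2%). Most of the 14 had under 100 counts. RN7SL1, the RNA of the signal recognition particle, had an FPKM of 241, 155 and 241 in CRLM1-OE, 460, 619 and 720 in Ctrl, and 571, 591 and 499 in Anti, with log2 fold changes of -1.60 ± 0.030 and -1.42 ± 0.028, and RN7SL2 gave -1.63 ± 0.042 and -1.52 ± 0.041. RN7SK, the RNA that holds P-TEFb inactive, gave -0.58 ± 0.16 (edgeR adjusted p = 0.000980) and -0.26 ± 0.16 (edgeR adjusted p = 0.247). SNORD3A, the U3 small nucleolar RNA, was lowest in Anti, by log2 fold changes of 1.60 ± 0.072 in CRLM1-OE against Anti and -2.11 ± 0.069 in Anti against Ctrl. The HIST1H1C level was highest in CRLM1-OE and lowest in Anti, and that of RN7SL1 was lowest in CRLM1-OE. The part of poly(A) selection in the histone levels was not tested.

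Of the marker lists, 5 of 10 epithelial genes fell in CRLM1-OE against Ctrl and none rose. KRT18 had an FPKM of 426, 428 and 424 in CRLM1-OE and 790, 777 and 789 in Ctrl. CEACAM5, the only DEG of this list, had 0 counts in CRLM1-OE and 5, 4 and 0 in Ctrl. CD14 had 15, 4 and 4 counts in CRLM1-OE and 3, 1 and 0 in Anti, and was the only DEG of the leukocyte list. COL1A1 of the fibroblast list had 652, 633 and 617 counts in CRLM1-OE, 419, 330 and 305 in Ctrl, and 383, 373 and 371 in Anti, and it rose by 0.75 ± 0.074 on the log2 scale against Ctrl (edgeR adjusted p = 1.01e-22) and by 0.70 ± 0.073 against Anti (edgeR adjusted p = 1.32e-20). No other gene of the fibroblast list passed in these comparisons. The part of the marker genes in the histone results was not tested.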

How the data were processed

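RNA from 9 HCT116 samples was sequenced by the authors (151 nt, paired ends). Per the labels and methods, reads were trimmed with the FASTX-Toolkit, reads under 16 nt were dropped, and the rest were aligned by TopHat2 with 4 mismatches to GRCh38 with Gencode version 23. The authors deposited raw gene counts, made from reads that mapped uniquely, and FPKM values. The use of strand in counting was not given in the sources used here. Of the members, 15 overlap an annotated gene on the opposite strand and 21 overlap one on the same strand. HIST1H2BD and HIST1H2AD overlap genes on both.

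Members were found by symbol. The members, lists and tests were chosen with earlier results of these data known. Tests on counts used glmQLFit and glmQLFTest of edgeR 4.0.16 (R 4.3.3) with TMM factors, on 6 samples without a covariate, for every gene with a count in them. Named are up to 6 members per family with a mean of at least 100 counts, all DEGs, and fixed genes of the lists. On data simulated for CRLM1-OE against Ctrl, the test recovered 91% of the planted 2-fold changes. These were planted only in genes with more counts than most members have, so that recovery at low counts was not checked. Alternatives were RLE factors, total counts, filterByExpr, at least 10 counts in every sample, DESeq2 1.42.0, limma 3.58.1 on log2(FPKM + 0.1) and log2(FPKM + 1), 1 fit over the 9 samples together, a replicate block, each replicate left out, and a 2-fold limit. Positions and stem-loops are from GENCODE version 44 and promoters from RefSeq. Depth ranged from 33302292 to 44514692 counts per sample; intervals and floors cover counting error only. Where replicates share a culture, p-values measure technical spread only; the sources call them biological.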

Additional observations from a re-analysis of the deposited data

How the results depend on the processing

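Named members gave 30 calls in the 3 comparisons, of which 18 passed whichever replicate was left out. The settings that ended the other calls are given with the genes. With a 2-fold limit in addition, CRLM1-OE against Ctrl gave 1 higher and 0 lower, CRLM1-OE against Anti 7 and 0, and Anti against Ctrl 2 lower. The count of lower members against Ctrl was 1 with total counts, DESeq2 or limma on log2(FPKM + 1). Against Anti it was 0 with RLE factors, total counts, DESeq2 or the fit of all 9 samples, and 1 with at least 10 counts in every sample or limma with either pseudocount.

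The median over members against Ctrl (0.30) was 0.44 with total counts, 0.14 with filterByExpr, 0.19 with at least 10 counts in every sample, 0.22 and 0.058 with limma (pseudocounts 0.1 and 1), 0.18 in the fit of all 9 samples and 0.24 with the replicate block. Against Anti (0.58) it was 0.41 with filterByExpr, 0.41 with at least 10 counts in every sample, 0.40 and 0.062 with limma and 0.52 in the fit of all 9 samples. In Anti against Ctrl (-0.32) it was -0.22 with total counts and -0.17 and -0.042 with limma. The cause was not tested.

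Direction turned only for values that had not passed. HIST1H2BD against Ctrl was 0.11 with total counts and 0.076 and 0.071 with limma, HIST1H3E against Ctrl 0.10, 0.074 and 0.031, and HIST1H2AC against Anti 0.016, 0.0082 and 0.00737. By FPKM the summed H2A ratio to Ctrl was 1.003 and the summed H3 ratio to Anti 0.963.

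Without single replicates, CRLM1-OE against Ctrl gave 6 to 10 higher, 1 to 3 lower and a median of 0.18 to 0.45. Against Anti these were 10 to 13, 0 to 2 and 0.45 to 0.76, and in Anti against Ctrl 0 to 1, 4 to 6 and -0.46 to -0.25. Log2 fold changes that changed sign ranged, for HIST1H2AC, from -0.023 to 0.083 against Ctrl, -0.091 to 0.014 against Anti and -0.0037 to 0.090 in Anti against Ctrl. Against Ctrl they ranged from -0.10 to 0.020 for HIST1H2BD, -0.69 to 0.45 for HIST1H3E and -0.079 to 0.23 for HIST1H4J. In Anti against Ctrl they ranged from -3.56 to 0.20 for HIST1H2AJ, -0.20 to 0.17 for HIST1H3H, -0.40 to 0.028 for HIST2H2AC and -0.021 to 0.18 for HIST2H2BE.

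Same-numbered replicates did not deviate together (mean correlation 0.00219, from -0.0749 to 0.0782, over 12941 genes). No pairing by number was seen, which does not show how the replicates were prepared. With the replicate block, 8 members rose and 2 fell against Ctrl, 11 and 2 against Anti, and 0 and 6 in Anti against Ctrl. The block ended the calls of HIST1H2AH (edgeR adjusted p = 0.0983) and HIST1H2AJ (edgeR adjusted p = 0.0610) against Anti. DESeq2 gave no adjusted p for 23, 20 and 31 members in the 3 comparisons. Of the 34 members with a mean under 10 counts, 3 passed in any comparison.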
